A study of Mus musculus with 419 samples.

Results

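Slc25a25, Otud1 and Odf3l2 are 3 of the 55487 genes in the count table of a study that sequenced RNA from 19 tissues of mice kept energy-deficient or energy-sufficient. They were selected on their values in limb muscle, in an earlier pass over these counts that named them as genes lower in energy-deficient than in energy-sufficient muscle at night, and were found here by their symbols. All values from limb muscle, and from tendon samples that hold muscle RNA, are therefore given as a description with no test. Tests are given for the other tissues and for the difference between the sexes in muscle. Averaged over the sexes, the night difference for which they were chosen was negative for Otud1 in all 5 limb muscles. Males fitted alone did not have a negative difference of Otud1 in gastrocnemius. For Slc25a25 the averaged difference was negative in 4 muscles and near 0 in gastrocnemius, and for Odf3l2 it was near 0 outside soleus. Soleus held too few counts of Odf3l2 at night to read a difference. In the daytime all 3 genes were higher in energy-deficient muscle, and in nearly every muscle this difference was larger in size than that at night.

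Slc25a25 encodes a carrier of the inner mitochondrial membrane that exchanges ATP-Mg for phosphate and is regulated by calcium, and so alters the pool of adenine nucleotides inside mitochondria. Otud1 encodes a deubiquitinase of the OTU (ovarian tumour protease) family, enzymes that remove ubiquitin from other proteins. Odf3l2 is named for its likeness to a gene of the outer dense fibres, the stiff sheath around the core of the sperm tail. Skeletal muscle fibres are of slow and fast types, the soleus of the mouse being rich in slow fibres and the tibialis anterior and extensor digitorum longus in fast ones.

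The mice were of the CBA/CaJ strain, used as a model of relative energy deficiency in sport, in which food energy does not cover the cost of exercise. The Deficient group was set against the Control group, which was energy-sufficient; how the deficiency was produced and the age of the mice are not given in the sources used here. Females and males were sampled at zeitgeber time 5 h or 17 h (ZT05 and ZT17, counted from lights on), so that ZT17 falls in the active phase of a nocturnal animal under an even light cycle. There were 3 libraries for each sex, treatment and time, except that the tibialis anterior tendon had 2 for Control males at ZT05. The 419 libraries came from 36 mice, held 5777450 to 53598697 counts each, and different tissues share mice. The 24 males fall into 2 runs of animal numbers, called the first cohort (to 62) and second cohort (from 73) here, while the 12 females carry numbers of the first. In the extensor digitorum longus, soleus and tibialis anterior, in the tendons of the first and last of these, and in kidney and adrenal gland every male was of the second cohort, so sex and cohort cannot be told apart there. In quadriceps the second cohort gave males at ZT17 only, Control mice 78 and 86 and Deficient mouse 74. In gastrocnemius it gave Control mouse 77 at ZT05 and Deficient mice 73 at ZT05 and 74 at ZT17. To the gastrocnemius tendon it gave Control mice 77 at ZT05 and 78 at ZT17, and no Deficient mouse. Brown adipose tissue had Deficient mouse 74 of that cohort at ZT17, and spleen Control mouse 77 at ZT05. Cohort was thus not balanced over time and treatment in these tissues. Levels are in CPM, a gene's share of its library's counts times a constant, with library sizes scaled by TMM within each tissue.

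Some libraries stand apart. Mouse 59, a Deficient female at ZT05, had levels of the 3 genes near those of Control females in most muscles, whereas some other genes that separate the treatments were near their levels in the other Deficient females. Cirbp, a cold-inducible RNA-binding protein, was above every Control female at ZT05 in 5 of 5 muscles, and Col1a1 and Serpinh1, a collagen and its chaperone, were below every one in 5 of 5. Fkbp5, a glucocorticoid-induced gene, lay between the groups in all 5 muscles, with 42.3 CPM in the gastrocnemius of mouse 59, against 83.5 and 104 CPM in the other Deficient females and 14.7 to 20.3 CPM in Control females. Its soleus library also held 34338 CPM of Myh4 and 4220 CPM of Actn3, both of fast fibres, where the next highest of the 24 soleus libraries held 814 and 140.4 CPM. Mouse 78, a Control male at ZT17, was low in Slc25a25 in every muscle and tendon sampled from it. The pituitary library of mouse 34, a Control male at ZT17, held 611 CPM of Acta1, the actin of muscle, where the next highest held 6.87 CPM, and 554 CPM of Ckm, muscle creatine kinase. Results that rest on these libraries are given with and without them where the value or the call moved.

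Slc25a25 (ENSMUSG00000026819) is annotated on the minus strand of chromosome 2 at 32414487 to 32451445 in GRCm38, with 12 annotated transcript starts, and its 5′ end overlaps Naif1 on the other strand. The kit was stranded, but whether the counting used strand is not given in the sources used here, so reads from the overlap could belong to either gene. Otud1 (ENSMUSG00000043415) lies on the plus strand of chromosome 2 at 19657752 to 19660583, and Odf3l2 (ENSMUSG00000035963) on the minus strand of chromosome 10 at 79639526 to 79645738. Neither overlaps another annotated gene. The 250 bases before the annotated start are printed for the promoters that RefSeq lists in GRCm38.p6, 3 for Slc25a25 and 1 for Otud1. No promoter of Odf3l2 was listed in the source used here, so none was searched. Capitals mark matches to the cAMP response element in full (TGACGTCA), its core (TGACG), the E-box that clock factors bind (CACGTG), the FOXO site (GTAAACA) and the D-box (TTATGTAA), searched on both strands; the motifs were picked after earlier results were known.
Slc25a25 promoter 1, chr2:32451471-32451720, minus strand: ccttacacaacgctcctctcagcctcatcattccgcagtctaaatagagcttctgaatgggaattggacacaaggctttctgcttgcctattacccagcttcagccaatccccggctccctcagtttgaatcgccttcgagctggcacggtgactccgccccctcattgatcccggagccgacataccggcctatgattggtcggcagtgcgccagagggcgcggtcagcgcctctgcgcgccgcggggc
Slc25a25 promoter 2, chr2:32431152-32431401, minus strand: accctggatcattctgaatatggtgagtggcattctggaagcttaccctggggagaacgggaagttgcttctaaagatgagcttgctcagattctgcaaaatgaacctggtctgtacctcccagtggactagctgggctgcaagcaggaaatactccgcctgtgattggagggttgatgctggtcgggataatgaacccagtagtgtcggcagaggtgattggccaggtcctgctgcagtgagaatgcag
Slc25a25 promoter 3, chr2:32424067-32424316, minus strand: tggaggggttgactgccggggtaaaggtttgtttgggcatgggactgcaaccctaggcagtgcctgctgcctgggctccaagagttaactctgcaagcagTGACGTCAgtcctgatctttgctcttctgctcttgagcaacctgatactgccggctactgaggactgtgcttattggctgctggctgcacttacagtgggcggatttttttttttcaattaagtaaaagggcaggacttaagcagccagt
Otud1 promoter, chr2:19657481-19657730, plus strand: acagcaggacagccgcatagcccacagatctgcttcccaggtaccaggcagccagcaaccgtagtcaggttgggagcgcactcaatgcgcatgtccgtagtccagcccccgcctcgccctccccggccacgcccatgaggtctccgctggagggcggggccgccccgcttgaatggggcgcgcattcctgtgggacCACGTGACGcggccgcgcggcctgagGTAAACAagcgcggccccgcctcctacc
Promoter 3 of Slc25a25 holds a full cAMP response element that begins 150 bases before the start, and its other promoters hold none of the letters searched. The Otud1 promoter holds an E-box 54 bases before the start, a cAMP core that overlaps it at 50 bases, and a FOXO site at 28 bases. The search covered the 250 bases before the start and 50 after it, in these promoters and in 32851 mouse promoters taken for comparison. Of those 32851, 1.79% hold the full cAMP element, 20.8% its core, 7.15% the E-box, 3.65% the FOXO site and 0.938% the D-box. A match is a description of the sequence and not of binding.

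In daytime Slc25a25 was several times more abundant in Deficient than in Control muscle, and at night it was lower. In the tibialis anterior at ZT05 Deficient females had 168, 60.1 and 16.0 CPM and Deficient males 98.5, 179.6 and 121 CPM, against 11.1, 12.7 and 6.56 CPM in Control females and 26.1, 11.6 and 12.6 CPM in Control males. Mouse 59 gave the lowest Deficient value, and it alone lay within the Control range. At ZT17 Deficient females had 29.9, 44.2 and 10.5 CPM and Deficient males 22.3, 8.91 and 22.4 CPM, against 86.1, 95.5 and 81.2 CPM in Control females and 10.8, 53.9 and 45.4 CPM in Control males. All Deficient females were below all Control females, and the males overlapped through mouse 78. The log2 difference, Deficient over Control, was 2.99 ± 0.46 at ZT05 and -1.33 ± 0.44 at ZT17 (estimate ± SE, both sexes averaged). Without mouse 59 the ZT05 difference was 3.23, and without mouse 78 the ZT17 difference was -1.55.

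The other muscles had the same order of groups at ZT05. The extensor digitorum longus ranged from 20.8 to 196 CPM in Deficient mice with a median of 139, against 11.3 to 39.1 CPM in Control mice with a median of 18.8. Quadriceps held 10.6 to 155 CPM in Deficient mice (median 72.0) and 6.51 to 15.6 CPM in Control mice (median 10.4). In soleus the levels were 13.4 to 57.1 CPM in Deficient mice (median 28.9) and 8.60 to 16.1 CPM in Control mice (median 11.4). The lowest Deficient library was mouse 59's in each of these muscles, and in each the groups overlapped through it alone. Over the 5 muscles the log2 difference at ZT05 was between 1.53 in soleus and 2.99 in tibialis anterior, with a median of 2.66.

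At ZT17 the difference in Slc25a25 varied more between muscles. The gastrocnemius, the large calf muscle, had 42.8, 40.9 and 17.7 CPM in Deficient females and 16.4, 11.9 and 23.6 CPM in Deficient males, against 52.6, 50.7 and 60.7 CPM in Control females and 14.7, 13.3 and 7.31 CPM in Control males. The Control males there, all of the first cohort, were as low as the Deficient males, and the averaged log2 difference was -0.07 ± 0.43. In the other muscles it was -1.12 ± 0.42 in extensor digitorum longus, -0.82 ± 0.53 in quadriceps and -0.58 ± 0.28 in soleus. Control males were also low in quadriceps, where mice 58 and 78 had 6.53 and 7.83 CPM and mouse 86 had 55.3 CPM. Within Control mice ZT17 was above ZT05 with a median log2 difference over the 5 muscles of 1.25, while within Deficient mice ZT17 was below ZT05 with a median of -1.96.

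**Figure D1:**
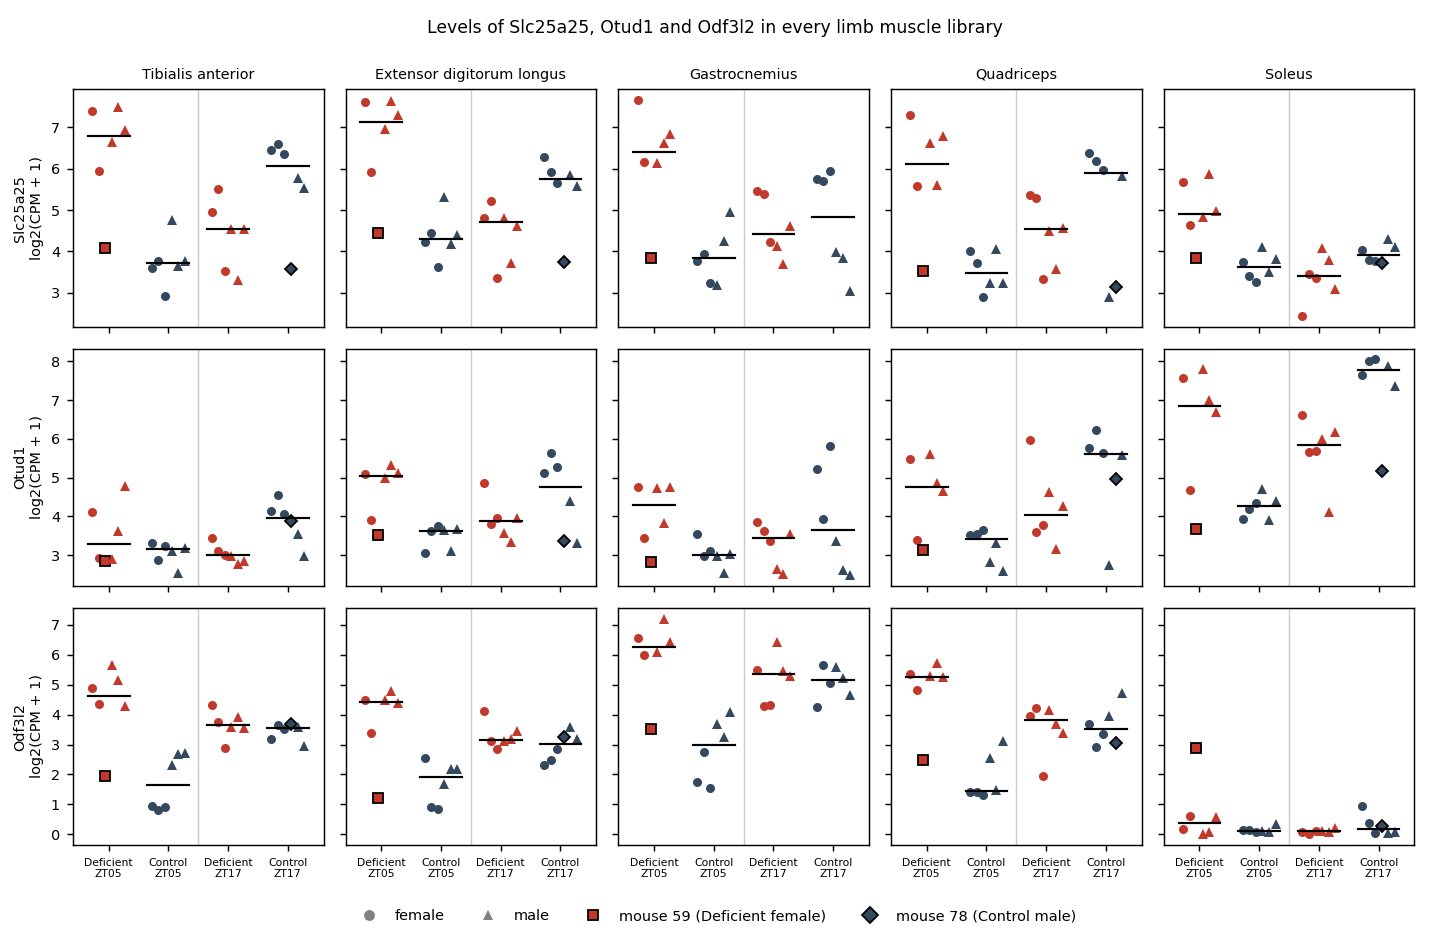
Level of each gene as log2(CPM + 1) in every library of the 5 limb muscles, by treatment and time, with females as circles, males as triangles, mice 59 and 78 outlined and a line at the median. At ZT05 most Deficient points of Slc25a25 and Odf3l2 lie above the Control points, at ZT17 most Deficient points of Slc25a25 and Otud1 lie below the Control females, and Odf3l2 is near 0 in soleus.

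Otud1 followed the same course with its highest levels in soleus. At ZT17 soleus held 96.3, 49.5 and 50.5 CPM in Deficient females and 62.4, 16.4 and 71.4 CPM in Deficient males, against 200.1, 255 and 264 CPM in Control females and 35.1, 236 and 165 CPM in Control males. The Control value of 35.1 CPM was mouse 78's, and without it no Deficient library reached a Control library. At ZT05 Deficient females had 190.0, 24.6 and 11.8 CPM and Deficient males 220.2, 127 and 103 CPM, against 14.3, 17.4 and 19.3 CPM in Control females and 25.1, 13.9 and 20.1 CPM in Control males. The Deficient males were far above all Control males, whereas the Deficient females spread from below the Control range to far above it. The log2 difference in soleus was -1.71 ± 0.52 at ZT17, or -1.94 without mouse 78, and 2.54 ± 0.54 at ZT05, or 2.80 without mouse 59.

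In the other 4 muscles Otud1 was lower and moved less. Its log2 difference at ZT17 was between -0.63 ± 0.26 in extensor digitorum longus and -0.95 ± 0.27 in tibialis anterior, and at ZT05 between 0.69 ± 0.27 in tibialis anterior and 1.60 ± 0.50 in quadriceps. Quadriceps at ZT17 held 62.1, 11.2 and 12.8 CPM in Deficient females and 23.9, 7.91 and 18.3 CPM in Deficient males, against 53.3, 73.7 and 48.5 CPM in Control females and 5.73, 30.2 and 46.8 CPM in Control males. A Deficient female, mouse 36, stood among the Control females there, and a Control male, mouse 58, was the lowest of all 12. In tibialis anterior at ZT17 the levels were 5.81 to 9.93 CPM in Deficient mice (median 6.99) and 6.81 to 22.5 CPM in Control mice (median 14.6). Gastrocnemius at ZT17 held 4.72 to 13.4 CPM in Deficient mice (median 9.91) and 4.59 to 55.0 CPM in Control mice (median 11.8). The averaged log2 difference there was -0.76, and its sign changed in males fitted alone. Tibialis anterior was the only muscle in which the night difference of Otud1 was larger than the day difference.

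Odf3l2 was higher in Deficient muscle by day and differed little at night, so a night reduction did not describe it. The gastrocnemius had the most: at ZT05 Deficient females had 92.9, 62.3 and 10.6 CPM and Deficient males 67.6, 147 and 84.5 CPM, against 2.35, 5.65 and 1.94 CPM in Control females and 11.7, 8.53 and 16.0 CPM in Control males. Only mouse 59, at 10.6 CPM, was within the range of all Control libraries, and it too was above the Control females. At ZT17 Deficient females had 43.6, 18.7 and 19.1 CPM and Deficient males 85.7, 42.6 and 38.0 CPM, against 18.1, 49.1 and 32.5 CPM in Control females and 47.1, 36.4 and 24.3 CPM in Control males. These overlapped throughout. The log2 difference in gastrocnemius was 3.53 ± 0.46 at ZT05 and 0.17 ± 0.41 at ZT17.

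The remaining fast muscles behaved alike for Odf3l2. In tibialis anterior at ZT05 Deficient females had 28.9, 19.4 and 2.90 CPM and Deficient males 49.0, 34.7 and 18.6 CPM, against 0.920, 0.774 and 0.866 CPM in Control females and 4.03, 5.36 and 5.56 CPM in Control males. All Deficient females, mouse 59 included, were above all Control females. Over the 4 muscles other than soleus the log2 difference was between 2.57 and 3.55 at ZT05 with a median of 3.52, and between 0.02 and 0.47 at ZT17 with a median of 0.23. The ZT17 estimate was positive in 4 of 4 muscles, against SEs of 0.34 to 0.43, and without mouse 78 that of quadriceps was -0.16 in place of 0.02. Soleus was nearly without this RNA: 23 of its 24 libraries held at most 0.935 CPM, and mouse 59's, the library with fast-fibre RNA, held 6.42 CPM.

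**Figure D2:**
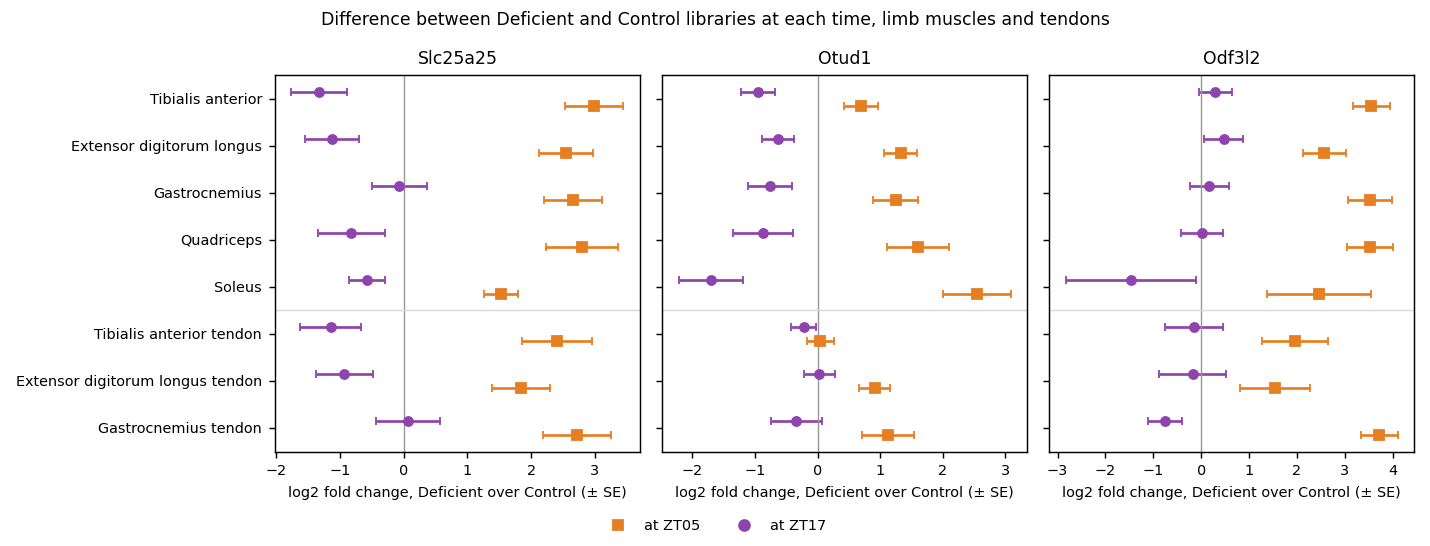
Log2 difference, Deficient over Control, with its SE (x axis) for each gene in the 5 limb muscles and 3 tendons, at ZT05 and at ZT17. The ZT05 values lie to the right of 0 throughout (that of Odf3l2 in soleus, 2.46, is 1.02 without mouse 59), the ZT17 values of Slc25a25 and Otud1 lie mostly to the left of it, and those of Odf3l2 lie near it except in soleus and the gastrocnemius tendon.

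The night response less the day response (the time difference) was negative for every gene in every muscle and tendon, in 24 of 24 pairs. Its log2 value over the limb muscles was between -4.32 and -2.10 for Slc25a25 and between -4.25 and -1.64 for Otud1, and its median was -3.31 for Odf3l2 over the 4 muscles other than soleus. The day part was larger in size than the night part in 5 of 5 muscles for Slc25a25, in 4 of 5 for Otud1 and in 5 of 5 for Odf3l2. For Odf3l2 in soleus this rests on mouse 59: the log2 values there were 2.46 at ZT05 and -1.47 at ZT17, with a time difference of -3.93. Without that mouse they were 1.02 ± 0.80 and -1.47 ± 0.94, with a time difference of -2.48 ± 1.23. These SEs are too wide to rank the parts. The ZT17 value came from 9 counts over the 6 Deficient libraries and 31 over the 6 Control libraries, and was -1.03 ± 1.72 without mouse 78. Counted within each sex, all 3 Deficient males were above all 3 Control males at ZT05 in 5 muscles for Slc25a25, 4 for Otud1 and 4 for Odf3l2, where 10.2% of all gene and muscle pairs do so. All Deficient females were above all Control females at ZT05 in 3, 0 and 4 muscles for these genes in the same order (16.2% of all pairs), and below them at ZT17 in 5, 4 and 0 muscles (16.2% of all pairs). Males at ZT17 overlapped in all 5 muscles for each gene. These contrasts chose the genes, so nothing is read from the counts.

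**Figure D3:**
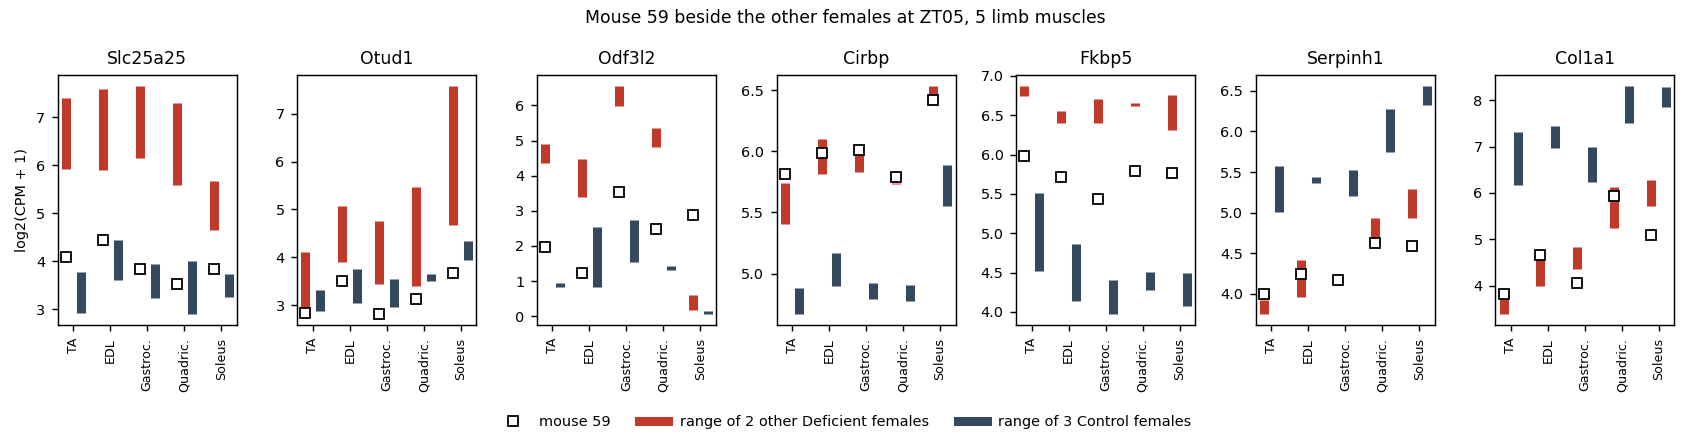
Level as log2(CPM + 1) of the 3 genes and of 4 genes that separate the treatments in the 5 limb muscles of mouse 59, beside the range of the 2 other Deficient females and of the 3 Control females at ZT05 (TA, tibialis anterior; EDL, extensor digitorum longus). Mouse 59 is at or near the other Deficient females for Cirbp, Col1a1 and Serpinh1, between the groups for Fkbp5, and nearer the Control females for Slc25a25 and Otud1 in all 5 muscles and for Odf3l2 in all but soleus.

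Tendon libraries resembled the muscles by day for Slc25a25 and Odf3l2 and less so for Otud1, and they held as much muscle RNA as the muscles. The summed level of 12 markers of muscle fibres had a median of 107069 to 124574 CPM in the 3 tendons, against 84426 to 129217 CPM in the 5 muscles. Tendon markers, 7 in all, were well above muscle in the tendons of the extensor digitorum longus (median 8691 CPM) and tibialis anterior (6317 CPM), but at 957 CPM in the gastrocnemius tendon they were at the level of soleus (985 CPM). Slc25a25 differed by a median log2 value of 2.41 at ZT05 (1.84 to 2.73) and -0.93 at ZT17 (-1.15 to 0.07). Otud1 differed by a median of 0.91 at ZT05 (0.05 in the tibialis anterior tendon to 1.13) and -0.22 at ZT17 (-0.34 to 0.03). At ZT17 Odf3l2 was negative in 3 of 3 tendons (-0.75 to -0.16), where all muscles but soleus were positive. Odf3l2 reached its highest level anywhere in the gastrocnemius tendon at ZT05, 17.3 to 219 CPM in Deficient mice (median 105.7) and 2.25 to 22.7 CPM in Control mice (median 10.1). At ZT17 that tendon held 19.6 to 57.2 CPM in Deficient mice (median 24.4) and 28.0 to 105 CPM in Control mice (median 53.9), the largest night difference of Odf3l2 outside soleus at -0.75 ± 0.35 on the log2 scale.

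Markers of other cell types in muscle also moved with treatment. Of all gene and muscle pairs 6.06% were called higher and 5.84% lower in Deficient mice at ZT17, and 7.39% higher and 6.5% lower at ZT05. Tendon markers were lower in Deficient muscle in 16 of 35 pairs at ZT17 and 18 of 35 at ZT05, with a summed level of 33.4 to 955 CPM in Deficient and 89.8 to 2422 CPM in Control libraries at ZT17. Macrophage markers were lower in 17 of 30 pairs at ZT17 and 6 of 30 at ZT05, with sums of 6.26 to 104 CPM in Deficient and 12.2 to 196 CPM in Control libraries at ZT17. Erythroid markers were lower in 10 of 20 pairs at ZT17 and 2 of 20 at ZT05, with sums of 4.35 to 346 CPM in Deficient and 40.0 to 360.2 CPM in Control libraries at ZT17. Muscle fibre markers changed little: of 60 pairs 6 were lower at ZT17, and 3 were lower and 3 higher at ZT05, and the median sums were 95199 CPM in Deficient and 97394 CPM in Control libraries at ZT17. Adipocyte markers were lower in 2 of 30 pairs at either time, endothelial markers in 4 of 25 at ZT05 with 1 higher, and Schwann cell markers in 1 of 25 at ZT17 with 2 higher. Both edgeR and DESeq2 called 0 endothelial pairs at ZT17 and 0 Schwann cell pairs at ZT05, where 4 and 1 had an unadjusted p under 0.05. No marker was at 0 in all limb muscle libraries. The part of these cells in the levels of the 3 genes was not tested, and in bulk RNA fewer cells of a type and less RNA per cell cannot be told apart.

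Over all 19 tissues each gene had its own order of Control levels. Library sizes were scaled within each tissue, so this order compares tissues scaled separately. Slc25a25 was highest in kidney, at 291 ± 72.4 CPM at ZT17 and 116 ± 47.8 CPM at ZT05 (mean ± SD, n = 6 each), followed by testis at 64.2, pituitary at 49.5 and liver at 42.9 CPM (mean of both times). Kidney and testis did not overlap, while the other 17 neighbouring pairs in the order did. Tibialis anterior was the highest limb muscle at 37.8 CPM, and brown adipose tissue was lowest at 4.02 CPM. Liver, brown adipose tissue and heart moved most when mitochondrially encoded and rRNA-like genes were left out of the library size: liver then stood at 139 CPM, next after kidney, brown adipose tissue at 13.9 CPM and heart, now the lowest, at 13.2 CPM.

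Otud1 was highest in soleus at 105 CPM, ahead of lung at 29.9 and quadriceps at 25.9 CPM, and lowest in liver at 0.977 CPM. Every neighbouring pair in its order overlapped, and at ZT05 alone soleus (18.3 ± 4.16 CPM) averaged less than lung (26.5 ± 4.95 CPM). Without the mitochondrially encoded and rRNA-like genes liver stayed lowest at 3.08 CPM, brown adipose tissue was at 9.55 CPM in place of 2.78, and heart was at 30.1 CPM in place of 13.7, rank 4 in place of 10. Odf3l2 was all but confined in these libraries to fast limb muscle and to tendon samples with muscle RNA, from 35.2 CPM in gastrocnemius tendon and 21.1 CPM in gastrocnemius to 4.84 CPM in extensor digitorum longus. Outside muscle and tendon 22 of 228 libraries held any of its counts, 55 counts in all, of which 34 were in pituitary and 24 of those in the library of mouse 34. Testis, where the outer dense fibres are made, held 7 counts in 12 libraries. In 5 tissues no count was found. With 3 counts as the limit, that allows at most 0.00374 CPM in liver to 0.014 CPM in uterus over the tissue's libraries. Library sizes in this limit are TMM-scaled. In liver they sum to 802966984 over 24 libraries, none of which held more than 25954733 counts. The limit there is thus lower than the counts sequenced would give. In male livers 79.2 to 95.4% of counts were mitochondrially encoded or rRNA-like.

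**Figure D4:**
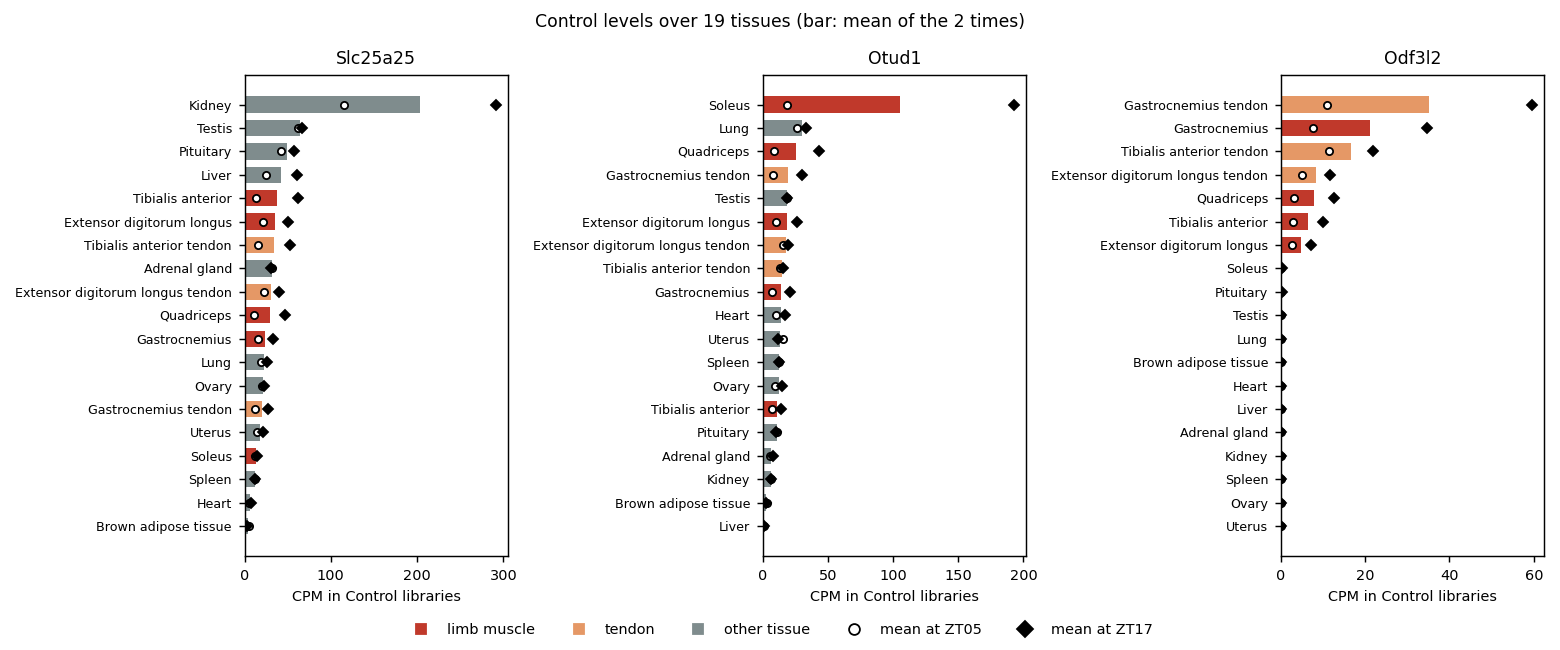
Mean Control level (CPM, linear axis from 0) of each gene in each of the 19 tissues, bars giving the mean of the 2 times and points the mean at ZT05 (open) and at ZT17 (filled). Kidney leads for Slc25a25 at 203 CPM, soleus for Otud1 at 105 CPM and the gastrocnemius tendon for Odf3l2 at 35.2 CPM.

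Outside muscle and tendon the difference between Deficient and Control mice can be tested, for Slc25a25 and Otud1 but not for Odf3l2, which did not pass the filter on low counts there. With the quasi-likelihood test of edgeR and Benjamini-Hochberg adjustment over all genes of a tissue, 5 of 22 gene and tissue pairs passed an adjusted p of 0.05 at ZT17, where 8.65% of all pairs did. At ZT05 1 of 22 passed (6.39% of all pairs), and for the difference between the times of the response 1 of 22 (2.51%). Within Control mice 3 of 22 differed between ZT17 and ZT05 (4.97%), and within Deficient mice 0 of 22 (1.34%), with 7 at an unadjusted p under 0.05 and 1 by DESeq2. Tissues share mice, so the pairs are not independent. In heart, mitochondrially encoded and rRNA-like counts made up 61.7 to 77.6% of male libraries and 22.5 to 31% of female ones. In lung these were 33.2 to 66% and 2.25 to 3.93%, and in brown adipose tissue 27.7 to 95.4% and 24.5 to 32.1%. Heart totals were 7813345 to 14678610 in males and 15110187 to 29225304 in females. Limb muscle spanned 9.73 to 88.3%. A call in 1 sex alone is not a test of a difference between the sexes, and the part of depth was not tested.

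In kidney Slc25a25 was at 116 to 235 CPM in Deficient mice at ZT17 (median 166), against 199 to 383 CPM in Control mice (median 302). It fell by 0.75 ± 0.23 on the log2 scale (adjusted p = 0.016). The groups overlapped, and fitted alone neither sex passed: females differed by -0.88 (adjusted p = 0.0583), males by -0.59 (adjusted p = 0.189). Within Control mice kidney Slc25a25 rose by 1.35 ± 0.23 at ZT17 relative to ZT05 (adjusted p = 0.000546), with 199 to 383 CPM at ZT17 against 70.3 to 198 CPM at ZT05 and no overlap. This was the only called pair that kept its call whichever replicate was left out, though fitted alone it passed in females (1.73, adjusted p = 0.0029) and not in males (0.97, adjusted p = 0.164). The response in kidney did not differ between the times by the threshold (-0.96 ± 0.32, adjusted p = 0.0787), and without mouse 59 it did (-1.08, adjusted p = 0.048).

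In lung Slc25a25 was at 9.68 to 26.4 CPM in Deficient mice at ZT17 (median 19.7), against 15.7 to 34.6 CPM in Control mice (median 28.2). The fall of 0.56 ± 0.14 passed (adjusted p = 0.0484), but not without mouse 59 (adjusted p = 0.0554), nor in females (-0.36, adjusted p = 0.0725) or males alone (-0.77, adjusted p = 0.513). The response at ZT17 minus that at ZT05 was -0.78 ± 0.20 (adjusted p = 0.0245), and fitted alone it was -0.71 in females (adjusted p = 0.0485), while males, at -0.85, did not pass (adjusted p = 0.208). Within Control mice lung Slc25a25 rose by 0.49 ± 0.14 at ZT17 relative to ZT05 (adjusted p = 0.0212). Lung libraries held a median of 341 CPM of summed muscle fibre markers, far under those of muscle.

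Heart, the other striated muscle, had differences of like size that missed the threshold. Slc25a25 was at 2.08 to 5.19 CPM in Deficient hearts at ZT17 (median 4.09), against 5.10 to 9.04 CPM in Control hearts (median 7.28), with a narrow overlap. The log2 difference was -0.85 ± 0.23 (adjusted p = 0.0609 with edgeR and 0.0131 with DESeq2, and 0.0371 with edgeR without mouse 59). Otud1 differed in heart by -0.63 ± 0.19 at ZT17 (adjusted p = 0.0898 with edgeR and 0.0372 with DESeq2). Fitted alone, females passed for Otud1 (-0.90, adjusted p = 0.0312) and males did not (-0.36, adjusted p = 0.806). Within Control hearts Otud1 was at 9.25 to 25.6 CPM at ZT17 (median 16.7), against 7.95 to 13.8 CPM at ZT05 (median 9.66), a rise of 0.77 ± 0.19 (adjusted p = 0.0305). It did so by 1.01 in females (adjusted p = 0.0165) and by 0.49 in males, which did not pass alone (adjusted p = 0.551).

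Otud1 was called higher in Deficient mice in 3 tissues at ZT17, the other direction from muscle. In uterus Deficient mice had 19.4, 21.7 and 24.7 CPM and Control mice 9.95, 12.4 and 13.1 CPM, with no overlap, a rise of 0.89 ± 0.23 (adjusted p = 0.014). In pituitary the levels were 13.7 to 19.0 CPM in Deficient mice (median 17.1) and 3.07 to 17.1 CPM in Control mice (median 9.42), a rise of 0.88 ± 0.22 (adjusted p = 0.0396). The pituitary call was lost without mouse 34 (0.72, adjusted p = 0.0976) and without mouse 59 (0.89, adjusted p = 0.0529), and neither females (0.41, adjusted p = 0.162) nor males (1.37, adjusted p = 0.353) passed alone. In kidney Otud1 was at 6.54 to 10.8 CPM in Deficient mice and 3.10 to 8.57 CPM in Control mice, a rise of 0.39 ± 0.14 (adjusted p = 0.0347) where males passed when fitted alone (0.76, adjusted p = 0.0295) and females, at 0.06, did not (adjusted p = 0.867). In ovary, with 18.6 to 19.5 CPM in Deficient mice and 10.6 to 17.2 CPM in Control mice, the groups did not overlap but the difference of 0.40 ± 0.28 did not pass (adjusted p = 0.455). In brown adipose tissue at ZT05 Otud1 fell by 1.56 ± 0.38 (adjusted p = 0.0198), with 0.347 to 1.39 CPM in Deficient mice and 1.62 to 6.72 CPM in Control mice and no overlap. That rests on 159 counts over the 6 Deficient libraries and 348 over the 6 Control libraries, and neither females (-0.71, adjusted p = 0.145) nor males (-2.33, adjusted p = 0.174) passed alone.

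**Figure D5:**
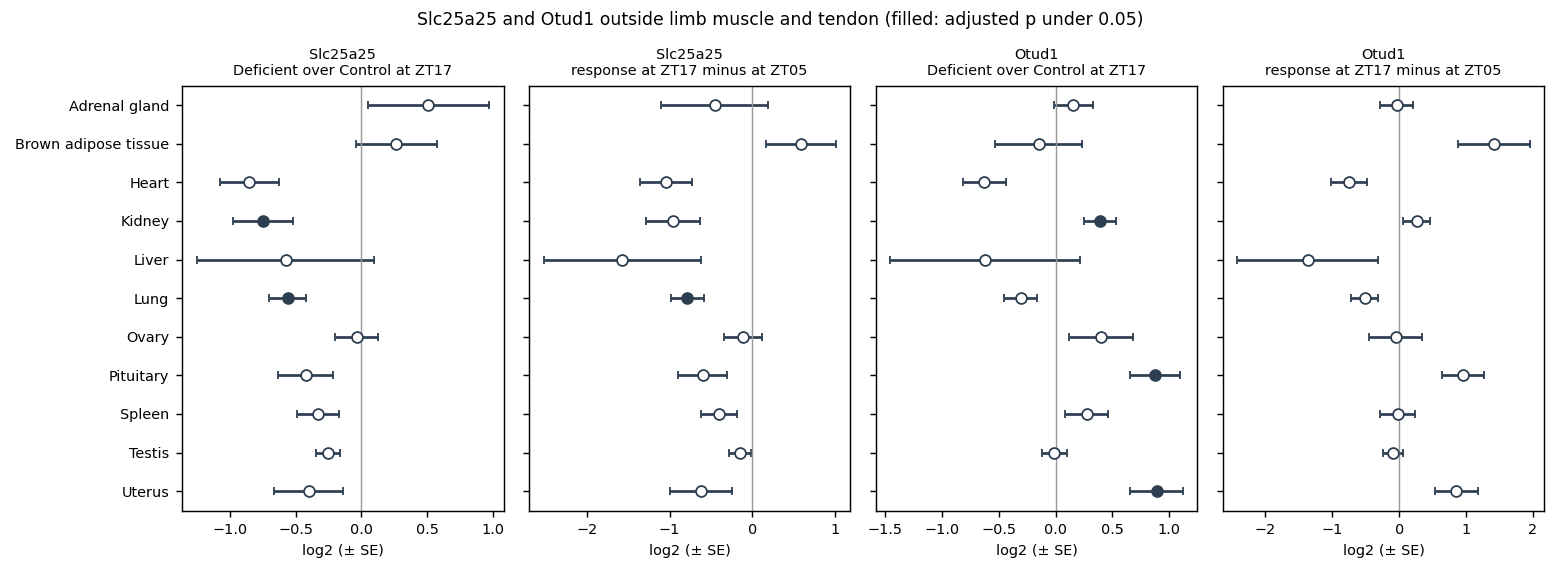
Log2 differences with their SE (x axis) for Slc25a25 and Otud1 in the 11 tissues other than limb muscle and tendon, for Deficient over Control at ZT17 and for the response at ZT17 minus that at ZT05; filled points have an adjusted p under 0.05. Slc25a25 is filled at ZT17 in kidney and lung on the left of 0, and Otud1 in kidney, pituitary and uterus on the right of it, and for the difference between times Slc25a25 in lung alone is filled.

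Whether females and males differed in their response was tested in the 5 limb muscles. Of 15 gene and muscle pairs 0 passed for the response at ZT17 (0% of all pairs), and 0 for the response at ZT17 minus that at ZT05 (0% of all pairs). An unadjusted p under 0.05 was reached by 1 pair for each, and DESeq2 called 0 for each. Without the filter on low counts some pairs were called for each, as counted in the closing section, with no share of all pairs to set beside them. The lowest unadjusted p at ZT17 was that of Otud1 in gastrocnemius, whose response in females minus that in males was -1.77 ± 0.70 log2 units (adjusted p = 0.398), and for the time difference that of Odf3l2 in soleus (-7.72 ± 3.49, adjusted p = 0.727), which rests on mouse 59's library. With an SE of 0.51 to 2.67 at ZT17, differences of several-fold between the sexes would not have been detectable. All 5 estimates of Slc25a25 at ZT17 were more negative in females, from -0.39 to -1.26.

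Relatives of the 3 genes are set beside all gene and muscle pairs, of which 6.06% were called higher and 5.84% lower at ZT17, and 7.39% higher and 6.5% lower at ZT05. Of 10 pairs of another ATP-Mg/Pi carrier with a muscle, 3 (30%) were called lower at ZT05. At ZT17 edgeR called 0 of them, DESeq2 called 0 and 0 had an unadjusted p under 0.05. The differences at ZT05 were small: Slc25a23 differed by -0.28 ± 0.07 in extensor digitorum longus and -0.31 ± 0.09 in tibialis anterior, and Slc25a24 by -0.30 ± 0.10 in soleus. Other carriers of adenine nucleotides, phosphate and coenzyme A were called lower in 5 of 40 pairs (12.5%) at ZT17 and higher in 1 of 40 (2.5%) at ZT05. OTU deubiquitinases were called higher in 8 of 65 pairs (12.3%) and lower in 3 (4.62%) at each time. Among them Tnfaip3, an inhibitor of NF-kappaB signalling, fell by 1.14 ± 0.16 in tibialis anterior at ZT05, Otub2 rose by 0.53 ± 0.14 there at ZT17, Yod1 by 0.40 ± 0.12 there at ZT05 and Zranb1 by 0.54 ± 0.10 in soleus at ZT05. Of the outer dense fibre genes Odf2, which also serves the centrosome, was called higher in 2 of the list's 18 pairs at ZT17 (11.1%) and 3 at ZT05 (16.7%; soleus 0.48 ± 0.08), and was the only gene of that list to be called at either time.

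An activity list of 38 genes, put together for muscle activity with early-response and stress genes, moved mostly up by day and both ways at night. Whether contraction induces each of its genes was not tested. At ZT05 50 of 190 pairs were called higher (7.39% of all pairs) and 4 lower (6.5%). At ZT17 19 were called higher (6.06% of all pairs) and 28 lower (5.84%), and the lower calls were mostly in soleus (11) and tibialis anterior (10). The difference between the times was called lower in 26 pairs (1.04% of all pairs) and higher in 1 (0.52%). The median log2 value of the list in a muscle was between -0.40 and 0.02 at ZT17, against -0.0028 to 0.04 for all genes, and between 0.15 and 0.58 at ZT05, against -0.00028 to 0.02 for all genes.

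Single genes of this list differed in direction. The 8 described next were named for the number of muscles in which they were called at ZT17. That rule left out Per1 and Sik1, called higher at ZT05 in 5 and in 4 muscles (median log2 values 1.72 and 1.30). Atf3, a stress-induced transcription factor, fell in 4 of 5 muscles at ZT17 (median log2 value -1.64) and rose in 2 at ZT05, and Rcan1, a calcineurin-induced inhibitor of calcineurin, fell in 4 at ZT17 (-0.91). Cish, an inhibitor of cytokine signalling, fell in 3 at ZT17 (-1.53). Arrdc2, an arrestin-domain protein, rose at both times, in 4 muscles at ZT17 (1.17) and in 5 at ZT05 (2.92), and so did Klf15, a glucocorticoid-responsive transcription factor, in 3 and in 5 (0.95 and 0.79). Pdk4, which restrains the use of glucose, rose in 3 at ZT17 (2.60), and Gadd45a, a growth-arrest gene, rose in 3 at ZT17 and in 2 at ZT05. Cyr61 was called in 5 muscles at each time, higher in 4 and lower in 1 at ZT17 and higher in 5 at ZT05. Clock genes were called higher in 10 (11.8%) and lower in 6 (7.06%) of 85 pairs at ZT17. At ZT05 these were 18 (21.2%) and 8 (9.41%). Genes of calcium and energy handling were called higher in 3 (3.75%) and lower in 12 (15%) of 80 pairs at ZT17. At ZT05 these were 7 (8.75%) and 8 (10%). Of all pairs 6.06% were called higher and 5.84% lower at ZT17, and 7.39% higher and 6.5% lower at ZT05.

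The genes whose levels ran most like those of each member were found over the 120 limb muscle libraries, among the 9316 genes that averaged 5 CPM or more there, by Pearson's r of log2(CPM + 1). The mean of each tissue and sex was subtracted first, so r does not reflect differences in level between muscles or sexes. These libraries share mice, treatments and times, and r is a description. Nearest to Slc25a25 were Tob2 (0.81), Med26 (0.80), Tsc22d3 (0.76), Cebpb (0.75), Noct (0.74) and Errfi1 (0.74). Nearest to Otud1 were Trib1 (0.79), Btg2 (0.77), Abra (0.76), Slc38a2 (0.75), Ier5 (0.75) and Atf3 (0.75). Nearest to Odf3l2 were Ankrd9 (0.76), Wbp1l (0.73), Cebpb (0.71), Med26 (0.71), Slc25a25 (0.70) and Prodh (0.70). Between the members r was 0.70 for Slc25a25 with Odf3l2, 0.58 for Slc25a25 with Otud1 and 0.32 for Otud1 with Odf3l2.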

How the data were processed

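The authors deposited raw counts per gene for 419 libraries, made per the labels' protocols from TRIzol-extracted RNA with a stranded poly(A) kit. The submitters' processing notes name STAR 2.7.10a and the build GRCm38 (mm10), with cutadapt 4.1 for reads, FastQC 0.11.9 for quality and DESeq2 1.34.0, but the counting tool and its strand setting are not given in the sources used here. A deposited table of the same counts after scaling was not used. Groups, sexes, times and animal numbers were taken from the labels and each library of a tissue is a different numbered mouse.

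The 3 members and all gene lists were chosen with earlier results of these data known. A separate quasi-likelihood model was made for every tissue (edgeR 4.0.16, R 4.3.3), with 1 coefficient per sex, treatment and time and TMM scaling, over genes that filterByExpr kept (count of 10, total of 15). Contrasts average the sexes present. P-values were adjusted over all genes of a tissue by the Benjamini-Hochberg procedure, and an adjusted p under 0.05 is called. Muscle and tendon values of the members carry no test of treatment or time. The text names the members, the 6 genes most like each, and up to 4 called relatives per family list with the largest log2 value. It also names up to 8 activity genes called in most muscles at ZT17, and Per1 and Sik1 for their calls at ZT05. Symbols shared or turned into dates were replaced by identifiers for 248 genes. The script of the fits was tested on simulated data. Alternatives were DESeq2 size factors, DESeq2 1.42.0, no filter, mitochondrially encoded and rRNA-like genes left out, each sex alone, a replicate block, each replicate left out and, chosen after seeing the data, mice 34, 59 and 78 left out. Same-numbered replicates did not pair (mean residual correlation within a tissue -0.0271 to 0.13). Each SE comes from the quasi-likelihood fit and includes the spread between mice, and each SD is a spread over mice. The limit of 3 counts covers counting error only.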

Additional observations from a re-analysis of the deposited data

Results flagged for a closer look

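The response of Slc25a25 in lung differed between the times of day by a test of that difference. It was lower at ZT17 than at ZT05 by a log2 value of -0.78 ± 0.20 (response at ZT17 minus that at ZT05, 24 libraries, adjusted p = 0.0245 by edgeR's quasi-likelihood test), with the same sign in females (-0.71) and males (-0.85) fitted alone. The call was lost whichever replicate number was left out (adjusted p = 0.0679 to 0.207).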

How the results depend on the processing

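The counts of called pairs moved with the setting. The share of all pairs called was taken for the main setting only, so the counts below have no share beside them. Nothing about the members or the activity list is read from these counts. Those of the treatment and time contrasts of the members are from outside muscle and tendon. Those of the sex differences and of the activity list are from limb muscle. Without the filter on low counts 8 pairs were called at ZT17, 2 at ZT05, 5 for the time difference and 1 within Deficient mice, 2 sex differences at ZT17 and 2 for the time difference, and 49 lower and 34 higher pairs of the activity list. DESeq2 called 1 within Deficient mice. Females alone gave 3 at ZT17, 0 at ZT05, 6 within Control mice, 1 within Deficient mice and 18 lower activity pairs; males alone gave 1, 0, 0 within Control mice, 0 for the time difference, 6 lower and 3 higher. Leaving out a replicate number gave 0 to 2 at ZT17, 0 at ZT05, 0 for the time difference, 1 to 2 within Control mice, 10 to 21 lower and 8 to 12 higher activity pairs. With the replicate block the counts were 5, 1, 1, 3 and 0, and the block changed no call of a member. Without mouse 59, chosen after seeing the data, 2 time differences were called. In muscle and tendon 622 values moved by less than their SE and 94 by more under an alternative; Otud1 in gastrocnemius at ZT17 changed sign in males alone (0.14). Fewer libraries enter the fits of 1 sex or without a replicate; the cause of the other changes was not tested. With 3 libraries a group and Odf3l2 near 0 outside muscle, small differences are not detectable at this depth.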
